A study of Mus musculus with 4 samples.

Results

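Kinesins, dyneins and unconventional myosins are the motors that move cargo, chromosomes and membranes along microtubules and actin filaments. Their messages were read in testes of hypogonadal (hpg) mice from 64 probe sets, each a group of short probes for one transcript, that stand for 47 genes. They were chosen by gene symbol alone, as every probe set with a single symbol of the kinesin (Kif, Klc), axonemal dynein (Dnah, Dnai), cytoplasmic dynein (Dync, Dynl), dynactin (Dctn) or numbered myosin (Myo) families, from 12422 probe sets in all, in which 8251 genes are named by a single symbol. The hpg mouse lacks gonadotropin-releasing hormone and makes little testosterone of its own. All the mice shared a first course of testosterone propionate, a form of the hormone for injection, and its withdrawal. That course lasted 2 weeks, except that T+T replicate 1 carries no duration. T+T comprises 3 arrays. Its replicate 1 was re-treated with the hormone ester over 4 hours, whereas for replicates 2 and 3 only the title, and no re-treatment in the description, places them in T+T. T+O comprises 1 array from withdrawn mice. Strain, age and dose are not given in the sources used here, nor whether an array stands for 1 animal or a pool, so p-values measure only the spread between these samples, which may be technical.

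Kinesins walk along microtubules, most of them towards the plus end, and serve transport, the spindle and cytokinesis. Cytoplasmic dynein walks towards the minus end together with its activator complex dynactin, while axonemal dyneins bend the sperm flagellum. Unconventional myosins move on actin. In the testis these motors carry vesicles in Sertoli cells, divide germ cells, shape the spermatid head through the manchette and build the sperm tail by intraflagellar transport.

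Values are signals on a linear scale after each array was scaled to a common trimmed mean. Differences are T+T minus T+O on the log2(signal + 9.78) scale, which understates the change of dim probe sets. Of the 64 motor probe sets, 47 from 35 genes had a mean signal over the 4 arrays above 22.7, the level above which a probe set was tested. Only the Myo1c probe set passed that filter with 1 group below its level, with T+O at 14.1. The 7453 probe sets tested in all came from 1 fit with limma, in which T+O, being 1 array, borrows the spread of T+T.

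Testis markers were measured on every array. The summed signal of 8 spermatid genes was between 30068 and 38924 in T+T and 30395 in T+O, that of 7 Sertoli genes between 2240.4 and 2580 against 2225, and that of 5 Leydig genes between 301 and 390.0 against 346. Single markers stood apart from these sums. Sycp1, a synaptonemal complex protein of meiotic cells, had 13.5, 38.5 and 36.2 in T+T against 390 in T+O, a log2 difference of -3.43 (limma adjusted p = 0.11) and the lowest of all 7453 probe sets tested. Dazl, a germ cell RNA-binding protein, and Kitl, the Sertoli ligand of the Kit receptor, were at -0.96 and -1.29, at least 1.5-fold below T+O on all 3 arrays. The lists that hold these genes did not share this throughout. Above 0 lay 6 of 7 Sertoli genes, 3 of 4 meiotic genes and 2 of 5 spermatogonia genes. The summed signal of the 4 meiotic genes was between 5101 and 6549 in T+T and 5741 in T+O. Most of that sum is the bright gene Ldhc, with 5861, 6071 and 4713 in T+T against 5073 in T+O. The sum therefore says little about Sycp1 or the other meiotic genes. The part of germ cell and Sertoli cell content in the motor differences was not tested. The ratio of 3′ to 5′ signal of the control gene Gapdh was 0.886, 0.837 and 0.809 on T+T replicates 1, 2 and 3, against 1.20 on the T+O array. For pyruvate carboxylase it was 1.93, 2.00 and 1.76 in T+T against 3.76 in T+O, and for Actb it was 1.66, 1.40 and 1.17 against 1.53. The part of RNA quality in the differences below was not tested. In whole testis, fewer cells of a type and less RNA per cell cannot be told apart.

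None of the 47 motor probe sets passed the adjusted threshold of 0.05 (limma, lowest adjusted p = 0.18), where 2 of all 7453 did (0.0268%). At an unadjusted p under 0.05 were 5 motor probe sets, or 10.6%, against 7.8% of all. Of these, 3 motor probe sets lay above T+O and 2 below, which is 6.38% and 4.26% against 3.57% and 4.23% of all probe sets. The 5 were those of Myo1c, Dnah8 and Kif3b on the upper side and Myo9a and Kif2a on the lower. On the log2(signal + 9.78) scale, every T+T array was 1.5-fold or more above T+O, or every one as far below, for 3 motor probe sets (6.38%), where the share over all probe sets was 4.07%. Of these, 2 lay above T+O and 1 below, against 1.84% and 2.23% of all. On the signals without the added constant Kif2a met this rule too, which makes 2 above and 2 below, and median scaling and quantile normalization also gave 4. The groups did not overlap for 26 motor probe sets (55.3%), against 53.3% of all probe sets. On each side were 13, where all probe sets had 29.5% above and 23.7% below. The motors' shares were thus near those of the whole table.

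Most motor messages differed little between the groups. The median log2 difference of the 47 was -0.07, against 0.03 for all 7453, and 20 of the 47 lay above 0 (42.6%, against 53.7% of all). Between -0.5 and 0.5 lay 39 of them, or 83.0%, against 84.4% of all probe sets. For 33 of the 47 (70.2%) the 95% interval of the difference lay wholly within 2-fold in either direction, and for 12 (25.5%) within 1.5-fold. Over all probe sets these shares were 66.2% and 14.9%. The range over the 3 T+T arrays was larger than the mean difference for 33 of the 47.

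**Figure D1:**
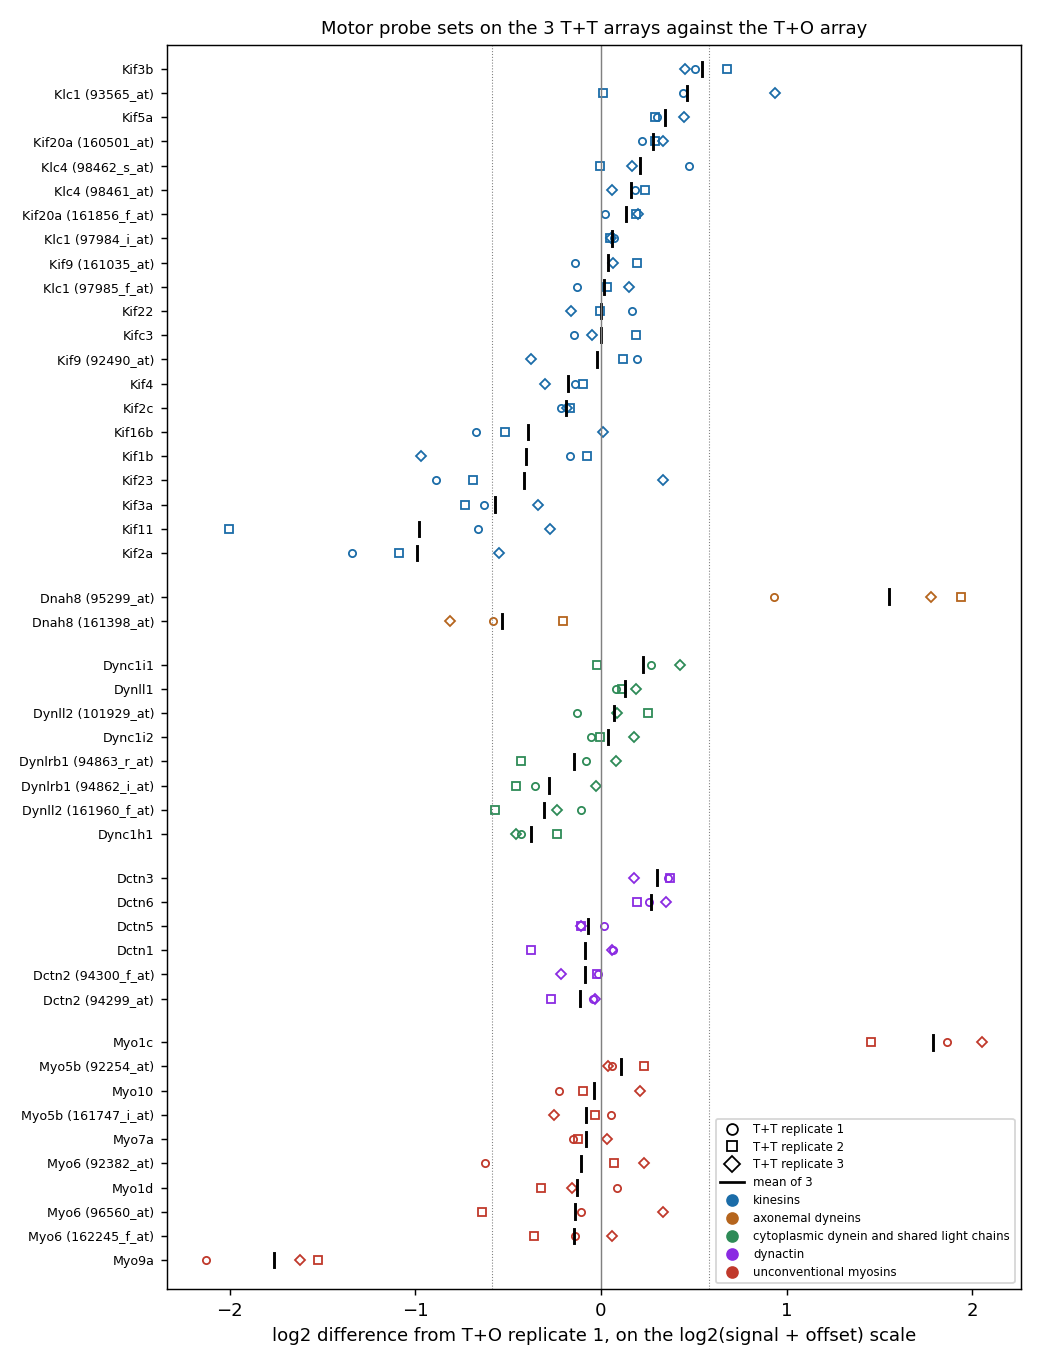
Log2 difference of each of the 47 tested motor probe sets from the T+O array, by family. Open symbols are the 3 T+T arrays, black bars their mean, and dotted lines mark 1.5-fold. Only Myo1c, Dnah8 (95299_at) and Myo9a have all 3 symbols beyond a dotted line, and the Dnah8 probe sets lie on opposite sides of 0.

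**Figure D2:**
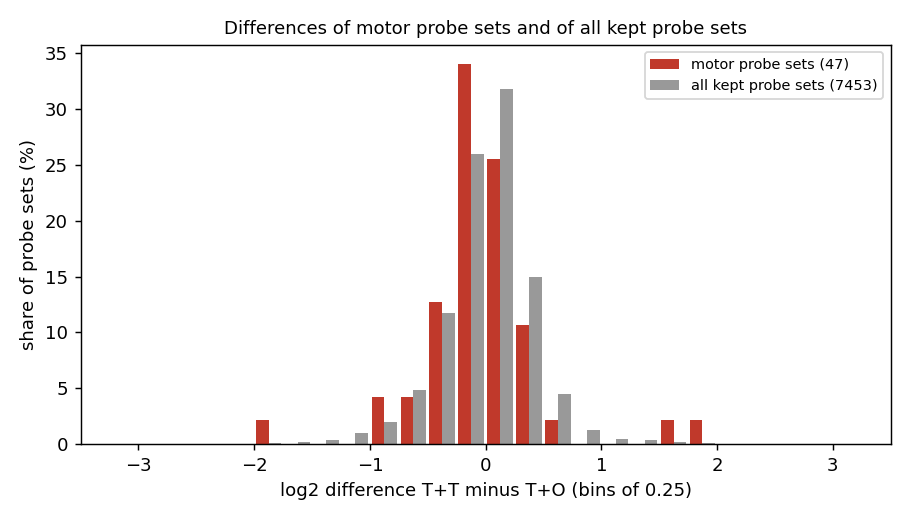
Share of probe sets in each bin of the log2 difference T+T minus T+O, for the 47 motor probe sets and all 7453 tested. Of the motors, 16 lie between -0.25 and 0 and 12 between 0 and 0.25, and 3 lie beyond 1.5 in size.

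Since androgen is the agent that differs between the labelled arms, the sequence upstream of the motor genes was searched for the core element of the androgen receptor's binding site, AGAACA on either strand (TGTTCT when read on the other). RefSeq promoters of build GRCm38.p6 were found for 37 of the 47 genes, and the 250 bases before each start were read. The core element occurred at 6 of 48 motor starts (12.5%), against 16.1% of all 32851 starts, and the full palindrome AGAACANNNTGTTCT at none of the 48 and at 3 of all. The first 4 sequences are shown because they are those of tested motor genes that hold the element (in capitals), and those of Dnah8 and Myo9a, which do not hold it, because these genes had wide gaps between the groups.
Klc4, chr17:46646081-46646330, minus strand: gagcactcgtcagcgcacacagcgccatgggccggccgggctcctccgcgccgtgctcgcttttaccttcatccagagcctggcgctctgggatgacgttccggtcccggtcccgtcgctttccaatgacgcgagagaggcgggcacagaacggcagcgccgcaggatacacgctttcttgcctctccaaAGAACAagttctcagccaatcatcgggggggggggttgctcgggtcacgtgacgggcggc
Kif23, chr9:61946800-61947049, minus strand: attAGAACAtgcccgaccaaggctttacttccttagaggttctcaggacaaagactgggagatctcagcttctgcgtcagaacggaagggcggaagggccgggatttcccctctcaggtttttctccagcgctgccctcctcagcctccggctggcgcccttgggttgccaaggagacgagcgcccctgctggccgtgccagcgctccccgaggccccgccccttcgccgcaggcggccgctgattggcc
Dync1i2, chr2:71211456-71211705, plus strand: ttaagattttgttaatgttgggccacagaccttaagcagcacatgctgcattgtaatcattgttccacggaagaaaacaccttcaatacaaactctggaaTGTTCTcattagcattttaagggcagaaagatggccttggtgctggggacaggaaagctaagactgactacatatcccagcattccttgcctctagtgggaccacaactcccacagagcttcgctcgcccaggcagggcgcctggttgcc
Dctn1, chr6:83185696-83185945, plus strand: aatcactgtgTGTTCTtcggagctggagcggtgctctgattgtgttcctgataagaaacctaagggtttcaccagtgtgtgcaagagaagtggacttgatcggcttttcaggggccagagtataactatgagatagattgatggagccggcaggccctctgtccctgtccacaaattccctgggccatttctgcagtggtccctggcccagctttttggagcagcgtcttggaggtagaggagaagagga
Dnah8, chr17:30626686-30626935, plus strand: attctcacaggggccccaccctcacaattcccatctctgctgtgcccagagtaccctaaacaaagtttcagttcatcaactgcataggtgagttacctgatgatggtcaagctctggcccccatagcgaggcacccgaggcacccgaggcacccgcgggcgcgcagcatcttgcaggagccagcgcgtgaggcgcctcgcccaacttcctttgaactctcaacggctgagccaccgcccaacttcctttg
Myo9a, chr9:59750924-59751173, plus strand: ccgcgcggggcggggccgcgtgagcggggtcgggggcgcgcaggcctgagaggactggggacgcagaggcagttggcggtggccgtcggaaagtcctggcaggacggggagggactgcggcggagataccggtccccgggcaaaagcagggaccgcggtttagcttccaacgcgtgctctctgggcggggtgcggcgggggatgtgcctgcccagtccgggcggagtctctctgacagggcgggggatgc
The genes with the element had log2 differences near 0 or within the spread of the arrays: 0.16 and 0.21 for the Klc4 probe sets, -0.41 for Kif23, 0.04 for Dync1i2 and -0.08 for Dctn1. None of the 3 Myo1c starts held it either. A match is a description of these letters and not a binding site.

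Among transport kinesins, the tested kinesin-1 probe sets, most of them for light chains, lay slightly above T+O and none passed the test. Kinesin-1 is a pair of heavy chains with light chains that pick the cargo. All 6 of its tested probe sets, which stand for 3 genes, had a mean above 0, from 0.02 to 0.46. Of all 7453 probe sets, 53.7% lay above 0. The lowest of the 6, Klc1 (97985_f_at), turned to -0.0083 after median scaling and went down to -0.19 among the alternatives run. The heavy chain Kif5a (96583_s_at) had 45.8, 45.4 and 51.7 on T+T replicates 1, 2 and 3, against 35.3 on the T+O array. All 3 T+T arrays were above T+O, by a mean of 0.35 (standard error 0.28, limma adjusted p = 0.83). The light chain Klc4 (98461_at) had 171, 178 and 156 in T+T against 149 in T+O, also without overlap. On its other probe set, 98462_s_at, the signals were 48.9, 32.2 and 37.6 in T+T against 32.4 in T+O, and the groups overlapped, as they did on 2 of the 6. For 53.3% of all probe sets the groups did not overlap. Klc1, another light chain, had 45.7, 31.3 and 68.5 in T+T against 31.0 in T+O on 93565_at, where replicate 2 was close to T+O and replicate 3 far above it. Its probe set 97984_i_at had 65.9, 64.7 and 65.0 against 62.3, a difference of 0.06. The heavy chains Kif5b and Kif5c and a second Kif5a probe set were too dim to test. Of these, Kif5b had 8.40, 10.2 and 9.66 in T+T against 14.2 in T+O. The second Kif5a probe set had 7.82, 1.59 and 6.39 against 8.51, so both lay below T+O on every T+T array. For Kif5c the groups overlapped.

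Kinesin-2 is a trimer of Kif3a, Kif3b and the linker Kifap3 that carries cargo to the tip of cilia and flagella. Its motor subunits lay on opposite sides of T+O, and neither passed the test. Kif3b had 85.5, 97.4 and 82.1 in T+T against 57.3 in T+O. The 3 T+T arrays were close together and all above T+O, by 0.55 (standard error 0.23, limma adjusted p = 0.63). Kif3a (100398_at) had 45.9, 42.1 and 58.5 in T+T against 76.5 in T+O. All 3 were below T+O, by a log2 difference of -0.57 (standard error 0.28, limma adjusted p = 0.70). Kifap3, which is no member by symbol, had 50.03, 65.5 and 78.6 in T+T against 124 in T+O, a log2 difference of -0.86 (standard error 0.28, limma adjusted p = 0.47). It was at least 1.5-fold below T+O on all 3 arrays.

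Both tested probe sets of kinesin-3 motors, which carry vesicles and endosomes, had T+T means below T+O with wide spread, and 3 others were too dim to test. Kif1b (160871_at) had 90.6, 97.3 and 47.9 in T+T against 103 in T+O, so that replicate 3 accounts for most of its mean difference of -0.40. Kif16b had 17.5, 20.6 and 34.0 against 33.7, with replicate 3 level with T+O. Kif9, a kinesin of the sperm flagellum, did not separate the groups on either probe set: 161035_at had 724, 913 and 835 in T+T against 798 in T+O, and 92490_at had 909.8, 865 and 610.2 against 795. The differences were 0.04 and -0.02, with 95% intervals of -0.40 to 0.48 and -0.59 to 0.55. Kifc3, a minus-end kinesin of the cytoplasm, had 57.2, 74.7 and 61.9 against 64.3.

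The kinesins of the spindle and of cytokinesis were read from 8 tested probe sets of 7 genes, 3 above and 5 below 0, and none passed. Kif2a, which takes microtubules apart from their ends, had 46.1, 56.8 and 86.8 in T+T against 132 in T+O. All 3 T+T arrays were lower than T+O, although replicate 3 lay well above the other two. The log2 difference was -0.99 (standard error 0.33), and its 95% interval ran from -1.75 to -0.24 (limma, adjusted p = 0.48). Its relative Kif2c, which does the same at kinetochores, had 389, 403 and 398 in T+T against 453 in T+O. This was a narrow gap of -0.19 with no overlap. Kif11, which pushes the spindle poles apart, had 27.1, 4.78 and 38.6 in T+T against 48.7 in T+O. Its T+T range of 1.73 on the log2 scale was the widest of the 47, and the mean of -0.98 rests largely on replicate 2. Kif23, part of the centralspindlin complex of the dividing cell's midzone, had 35.0, 41.7 and 94.4 against 73.0, so the groups overlapped. Kif20a, which works at the same site, lay above T+O on both probe sets, with 97.3, 103 and 106 against 82.2 on 160501_at. The chromosome-arm motors Kif22 and Kif4 had differences of 0.0012 and -0.18, and the sign for Kif22 turned to -0.03 after median scaling.

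**Figure D3:**
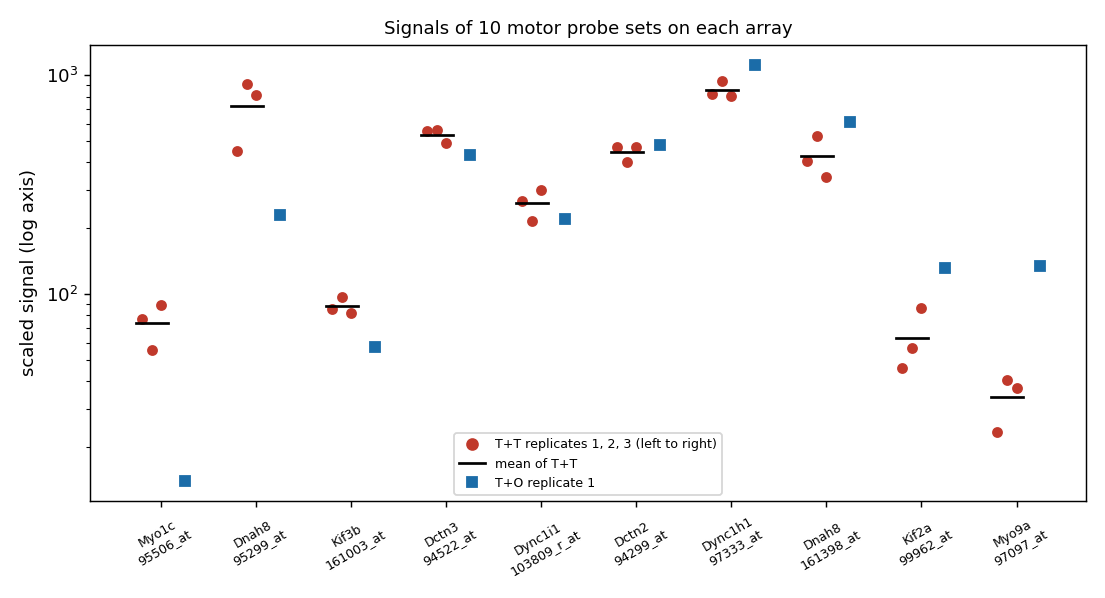
Scaled signal on a log axis of 10 motor probe sets, with T+T replicates 1 to 3 as red circles, their mean as a bar and the T+O array as a blue square. Myo1c has 55.6 to 89.1 in T+T against 14.1 in T+O, and Myo9a 23.3 to 40.6 against 135. For Dync1i1 the T+O square lies within the T+T range.

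Dnah8 is a heavy chain of the outer dynein arms, the motors that drive the beat of the sperm tail, and it was the only heavy chain of axonemal dynein among the members. Its probe sets pointed in opposite directions. On 95299_at the signals were 451, 916 and 817 in T+T against 231 in T+O. All 3 T+T arrays were at least 1.5-fold above T+O, with replicate 1 well below the other two. The log2 difference was 1.55 (standard error 0.36, limma adjusted p = 0.26). It was 1.86, 1.36 and 1.44 with T+T replicates 1, 2 and 3 left out in turn. T+T replicate 1 is the array described as given testosterone again. On 161398_at the signals were 407, 529.8 and 345 in T+T against 612 in T+O, with all 3 T+T arrays below T+O. This difference was -0.53 (standard error 0.25), and its 95% interval of -1.10 to 0.04 did not overlap that of 95299_at, 0.72 to 2.38. The direction for Dnah8 is therefore unsettled.

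Cytoplasmic dynein showed small differences and no call. Its heavy chain Dync1h1, which holds the motor, had 820.4, 942 and 806 in T+T against 1109.9 in T+O. All 3 T+T arrays were below T+O, by a log2 difference of -0.37 (standard error 0.18, limma adjusted p = 0.68). The intermediate chains, which bind dynactin, did not share this. Dync1i1 had 267, 216 and 299 in T+T against 219.7 in T+O, and Dync1i2 had 74.8, 77.8 and 89.5 against 78.0, and for each of them the groups overlapped. The light chain Dynll1, which also serves as a partner of proteins outside dynein, had 3874, 3956 and 4166 in T+T against 3658 in T+O. This was 0.13 above T+O with a 95% interval of -0.26 to 0.51. Its close relative Dynll2 had 219, 288 and 255 against 239.9 on 101929_at and 55.4, 37.4 and 49.7 against 60.4 on 161960_f_at. The names of the Dynll1 probe set and of the second Dynll2 probe set mark probes shared within a gene family, so their signals may mix relatives. Dynlrb1, the roadblock light chain, lay at -0.28 and -0.14 on its probe sets.

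Dynactin links dynein to its cargo, and its 6 probe sets stayed within -0.11 and 0.30. Dctn3, a subunit of the shoulder of the complex, had 557, 561 and 489.8 in T+T against 432 in T+O. All 3 T+T arrays were above T+O, by 0.30 (standard error 0.18, limma adjusted p = 0.74). Dctn6, at the pointed end of the complex, had 93.5, 88.9 and 100.2 against 76.4, likewise above on each array. Dctn5, its neighbour at the pointed end, had 376, 344 and 345 against 372, with replicate 1 above T+O and the others below. Dctn1, the large subunit that holds on to microtubules, had 269, 196 and 269 against 257. Dctn2, known as dynamitin, had 469, 399.6 and 471 against 483 on 94299_at and 439, 439 and 381 against 445 on 94300_f_at. Its log2 differences of -0.11 and -0.08 differed by only 0.03 between the probe sets.

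The widest gaps among the motors were those of a pair of unconventional myosins on opposite sides. Myo1c, a single-headed myosin that ties membranes to actin, had 77.1, 55.6 and 89.1 in T+T against 14.1 in T+O. All 3 T+T arrays were far above T+O, and their mean was 73.9 ± 17.0 (SD, n = 3). The log2 difference of 1.79 had a standard error of 0.31 (limma, adjusted p = 0.18), and was 1.14 when the added constant was raised to the 50th percentile. With T+T replicates 1, 2 and 3 left out in turn, the difference was 1.75, 1.96 and 1.66. Myo9a, a class IX myosin, had 23.3, 40.6 and 37.3 in T+T against 135 in T+O. All 3 T+T arrays were far below, with a mean of 33.8 ± 9.16 (SD, n = 3). The log2 difference was -1.76 (standard error 0.32, limma adjusted p = 0.21). It was -1.57, -1.87 and -1.83 with T+T replicates 1, 2 and 3 left out in turn. Among all probe sets ranked by p in the fit, Myo1c was at place 21 and Myo9a at place 24 of 7453. Myo1c was tested only because its T+T signals were high, since T+O at 14.1 was below the filter level of 22.7. Its p and its place are therefore a description and no support.

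The other tested probe sets of unconventional myosins had differences of at most 0.15 in size. Myo6, the motor that walks towards the minus end of actin, gave -0.11, -0.14 and -0.15 on its 3 probe sets, each with T+O within the T+T range. Myo7a, known for its part in the hair cells of the inner ear, had 277, 282 and 316 in T+T against 309 in T+O. Its 95% interval was -0.51 to 0.35. Myo10, a motor of filopodia, had 61.8, 68.6 and 87.2 against 73.9. Myo5b, which moves recycling endosomes, had 141, 159.9 and 139 against 135 on 92254_at, just above T+O on each array, and -0.08 on its other probe set. Myo1d had 42.4, 29.6 and 34.4 against 39.4. In all, 8 of the 10 tested myosin probe sets lay below 0, against 3448 of all 7453. Above 0 were 20% of the 10, against 53.7% of all. The 10 stand for only 7 genes, and 3 of the 8 are those of Myo6, so they are not separate readings.

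More than 1 probe set was tested for 10 genes, of which 6 had probe sets on the same side of 0. Of the 4 with opposite signs, Kif9, Dynll2 and Myo5b differed by 0.06, 0.37 and 0.19 between probe sets. Dnah8 alone differed by more than 0.5, with a gap of 2.08 on the log2 scale. The 3 Myo6 probe sets differed by 0.04 and the 3 Klc1 probe sets by 0.45. Of all probe sets 84.4% lay between -0.5 and 0.5, so a small gap says little about agreement. No share for pairs of unrelated probe sets was computed. The Dynlrb1 probe sets share a source sequence, as do 97984_i_at and 97985_f_at of Klc1, so these are not independent readings. The mark for probes shared within a gene family is also in the names 97985_f_at of Klc1, 161856_f_at of Kif20a, 94300_f_at of Dctn2 and 162245_f_at of Myo6. Their signals may likewise mix relatives.

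**Figure D4:**
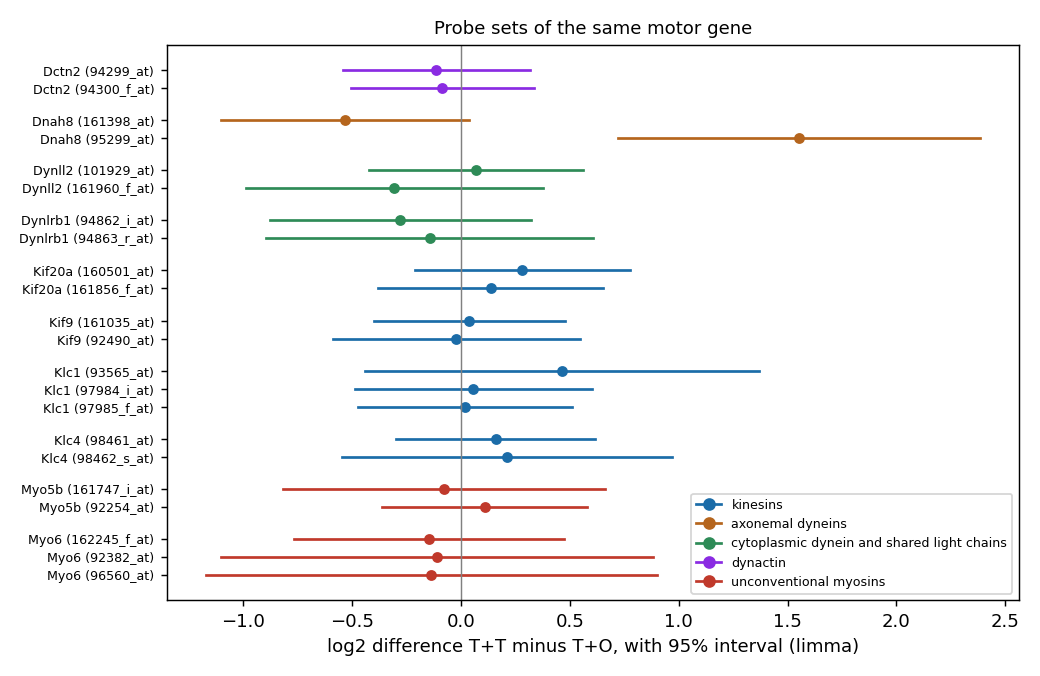
Log2 difference T+T minus T+O with its 95% interval from limma for the 22 probe sets of the 10 genes that had more than 1 tested. The intervals of Dnah8 lie apart at -1.10 to 0.04 and 0.72 to 2.38, while those of the other 9 genes overlap.

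Across the 47 motor probe sets the T+O array stood further from the T+T arrays than these did from each other. Pearson's r across probe sets was 0.932 to 0.936 between a T+T array and T+O, and 0.969 to 0.977 among the T+T arrays. Over all 7453 probe sets the ranges were 0.943 to 0.956 and 0.952 to 0.968, so they overlapped. There T+T replicate 3 was nearer to T+O (0.956) than to T+T replicate 1 (0.952). Probe sets are not independent replicates, and these values are a description.

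For T+T replicate 1 and T+O replicate 1, title and description say the same. In that pair, which is 1 array against 1 array with no replicate check, 2 motor probe sets were at least 1.5-fold above and 7 below T+O on the log2(signal + 9.78) scale, or 4.26% and 14.9% of the 47. The shares over all probe sets were 6.87% and 11.1%. Without the added constant 3 motor probe sets were above and 8 below, with Klc4 (98462_s_at) and Dnah8 (161398_at) as the additions. Above were Myo1c at 1.86 and Dnah8 (95299_at) at 0.93. Below were Myo9a at -2.13, Kif2a at -1.34, Kif23 at -0.89, Kif16b at -0.67, Kif11 at -0.66, Kif3a at -0.63 and Myo6 (92382_at) at -0.62. Kinesins were 5 of these 7, and 21 of the 47 tested. T+T replicate 3 lay above T+O for Kif23, Kif16b and this Myo6 probe set, and below it for Myo9a, Kif2a, Kif11 and Kif3a. If replicates 2 and 3 of T+T count as withdrawn, T+T replicate 1 is set against the other 3 arrays. No motor probe set passed under that reading (limma, lowest adjusted p = 0.92), with Myo1c at 0.70, Myo9a at -1.08, Kif2a at -0.79 and Dnah8 (95299_at) at -0.31.

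The partners of the motors were read from gene lists, each gene by its brightest tested probe set, and no gene of any list passed. Of 13 tested adaptors and regulators, 10 lay below 0, with a median of -0.26. The lowest were Kifap3 and Hap1, a huntingtin partner that binds motors, which had 159, 138 and 188 in T+T against 262 in T+O. Highest were Calm2, which encodes the calmodulin that serves many unconventional myosins as light chain, with 63.3, 67.4 and 83.2 against 48.9, and the dynein regulator Nde1 at 0.31. Of 10 axoneme and intraflagellar transport partners, 7 lay above 0, with a median of 0.13. They ran from Ift81 and Ift88 at -0.65 and -0.20 to the dynein light chain Dnal4 and the dynein regulatory complex gene Gas8 at 0.46 and 0.33. Of 13 microtubule regulators, 8 lay below 0, with a median of -0.10. Mapre3 and Mapt were at -0.85 and -0.69, and Tbcb and Map2 at 0.34 and 0.26.

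Conventional class II myosins gave 7 of 11 tested chains above 0 with a median of 0.10. Myh4, a heavy chain of fast skeletal muscle, had 42.0, 14.2 and 58.5 in T+T against 10.1 in T+O, and the fast muscle light chain Mylpf had 43.1, 48.6 and 33.4 against 23.8. Neither passed (limma, adjusted p = 0.71 and 0.73). Lowest were Myh9 and Myh11 at -0.17 and -0.15. The skeletal muscle markers had 3 of 7 genes tested, all above 0. Their summed signal was between 136 and 174 in T+T against 82.3 in T+O. The other 4, Acta1, Tnnt3, Tnni2 and Mb, were too dim to test. Myh4 is among the tested markers, and its T+O signal of 10.1 was below the filter level. It was tested only because its signals on T+T replicates 1 and 3 were high. The filter thus favoured its place above 0, in this list and among the class II chains, and that place is no support. The part of muscle tissue in these values was not tested.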

How the data were processed

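Total RNA of testis was measured on 4 one-colour arrays. The deposited table gives each probe set an intensity per array, linear by its range of values, and the sources used here do not name the software behind it. Log2 values were computed from these deposited intensities. The 66 control probe sets were left out, and arrays were scaled by factors (1.15, 1.33, 0.779 and 0.915 for T+T replicates 1, 2 and 3 and T+O) that set their means, trimmed by 2% at each end, to a common value. The 25th percentile of scaled values, 9.78, was added before log2, and probe sets with a mean above the 40th percentile (22.7) were kept. T+T minus T+O was tested with limma 3.58.1 in R 4.3.3 (lmFit, eBayes with an intensity trend, two-sided, 2 residual and 5.73 prior degrees of freedom), with Benjamini-Hochberg adjustment over 7453 probe sets. The procedure was tested on simulated data, but no outcome of that is given here, so it is no support for the results. The number of arrays limits the precision.

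Groups follow the sample titles. One T+T array is numbered 3 by accession order. Gene symbols come from the platform annotation; all 64 motor symbols matched the RefSeq gene table. A further 2 probe sets with several symbols, all of the Dynlt1 group, are no members. Motor probe sets were named with a value on every array where they passed the test, had an unadjusted p under 0.05, lay 1.5-fold to one side on all T+T arrays, were highest or lowest in their family, or disagreed in sign within a gene by more than 0.5 in size. Other members were named by role after their values were seen. The members and lists were chosen with earlier results of these data known. Alternatives covered scaling, offset, filter, the intensity trend, each T+T array left out and both readings of the labels. Marker lists besides those described were endothelial (3 genes tested, median log2 difference 0.42), macrophage (6, 0.26), peritubular (6, 0.36), spermatogonia (5, -0.16), meiotic (4, 0.10), ciliated epithelium (3, -0.0029) and red blood cell genes (3, 0.21).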

Additional observations from a re-analysis of the deposited data

How the results depend on the processing

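No paired analysis was possible because T+O is a single array, whose number pairs it with nothing. The count of motor probe sets past the adjusted threshold stayed at 0 under the scaling, offset, filter and trend alternatives. It was also 0 when replicates 2 and 3 of T+T counted as withdrawn, and was 0 to 3 when 1 T+T array was left out. Over all probe sets the count of 2 became 5 after median scaling, 6 when the added constant was the 50th percentile, and 0 after quantile normalization, with no filter, without the intensity trend and under that withdrawn reading. It was 1 to 63 with 1 T+T array left out. The cause was not tested. The 3 motor probe sets at least 1.5-fold to one side became 1 under the withdrawn reading and 9 in the pair of arrays whose labels match. They stayed at 3 without T+T replicate 1 and without T+T replicate 2, and were 7 (2 above, 5 below) without T+T replicate 3. In each of these settings fewer arrays have to lie on 1 side, and why the count rose only without replicate 3 was not tested. Over all probe sets the same count was 303, with 419 to 655 when 1 array was left out, 209 under the withdrawn reading and 1336 in the matching pair. The motor median of -0.07 became -0.0010 with the filter at the 60th percentile, which left 35 motor probe sets, and -0.0037 under the withdrawn reading. It was -0.08 to -0.03 with 1 array left out. Of the 10 motor probe sets named by rule, Dnah8 (95299_at) turned to -0.31 and Dctn2 (94299_at) to 0.060 under the withdrawn reading, and no other turned its sign under any alternative run. Median scaling turned the sign of 2 of the 47, Klc1 (97985_f_at) and Kif22, and quantile normalization that of none. With no added constant, an alternative chosen after seeing the data, the count of 3 became 4 (437 over all probe sets), and the 9 of the matching pair became 11 (1735).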

Other observations

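Too dim to test were 17 motor probe sets, with means over the 4 arrays of up to 19.3. They include every probe set of 12 genes: the kinesins Kif1a, Kif1c, Kif3c, Kif5b, Kif5c, Kifc1 and Kifc2, the light chains Dynlt1b and Dynlt3, and the myosins Myo1e, Myo1f and Myo5a. T+O lay above all 3 T+T arrays for 4 of the 17 and below all 3 for 4. Such separation held for 52.3% of all 4969 untested probe sets, with T+O above in 22.4% and below in 29.9%. Kif1c, a vesicle motor, had 21.2, 12.1 and 18.1 in T+T against 5.40 in T+O. Myo1f, a myosin known from leukocytes, had 10.01, 37.8 and 13.6 in T+T against 8.60 in T+O, with replicate 2 apart from the others. Kifc1, a minus-end kinesin of the spindle and of the spermatid, had 22.2, 15.9 and 22.1 against 16.9. No test was made on these values.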
